A study of Mus musculus with 24 samples.

Results

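Insulin and insulin-like growth factor signalling was followed through 10 genes in the prefrontal cortex (PFC) of mice: the receptors Insr and Igf1r, the adaptors Irs1 and Irs2, the PI3K subunit Pik3r1, the kinase Akt1, the transcription factors Foxo1 and Foxo3, and the stress and nutrient genes Txnip and Sesn1. They were chosen with earlier results of these data known, so counts among them are a description. All 10 were taken by gene symbol and were among the 14074 genes of the normalized count table. Bulk poly(A) RNA-seq was made from 1 PFC per male C57BL/6 mouse, 10 to 12 weeks of age, in 6 groups of 4. Control mice were never defeated and lived alone for 5 days before the experiment. The others met an aggressor each day through 30 days of chronic social defeat, and their behaviour was clustered into a passive coping strategy (PS) and an active one (AS). On the day after the last session each mouse was injected with saline or with dexamethasone (DEX, 2 mg/kg), a synthetic agonist of the glucocorticoid receptor, and the tissue was taken 6 h later. The 6 groups were therefore control saline, control DEX, PS saline, PS DEX, AS saline and AS DEX. All carried the same genotype and all received an injection, so that no group was free of handling. PS and AS are labels from 1 clustering of behaviour and not separate treatments, and control mice differed from both also in housing. The dissected block held several cortical areas (motor, cingulate, orbital, prelimbic and infralimbic).

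Insulin and insulin-like growth factor 1 bind receptor tyrosine kinases that phosphorylate adaptor proteins, the adaptors recruit PI3K, and the lipid it makes brings Akt kinases to the membrane. Akt phosphorylates FoxO factors and keeps them out of the nucleus, so that FoxO targets are on when the signal is low. In the brain the pathway is known for its part in neuronal growth, survival and synaptic plasticity, and glucocorticoids are known to oppose insulin action in muscle and liver.

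DEX raised the expression of 5 of the 10 genes over the 3 phenotypes, and none of the 10 fell, beside 15.5% of all genes called and 7.46% called and higher. Sesn1, Igf1r, Irs2, Pik3r1 and Foxo3 rose, whereas the mean response of Insr, Irs1, Akt1, Foxo1 and Txnip did not pass the test. Sesn1 and Igf1r rose in each of control, PS and AS mice. Txnip rose in control mice, while its estimates in both stressed phenotypes lay near 0. Neither difference in response passed the test (limma, adjusted p = 0.367 for PS and 0.16 for AS). Vessel, leptomeningeal, astrocyte, microglial and blood markers had a higher median response in control than in stressed mice, and oligodendrocyte markers a lower one. Chronic stress by itself moved none of the 10 past the test in saline-treated mice.

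Promoter windows are shown for the genes on which these results turn: Sesn1 and Igf1r, which rose in every phenotype, Irs2, the adaptor that rose, and Txnip, whose response was found in control mice. Each window runs 5′ to 3′ on the gene's own strand from 250 bases before the RefSeq transcription start to 30 bases after it (RefSeq on GRCm38.p6). Capitals mark a FoxO element (GTAAACA, or TGTTTAC on the other strand) or an E-box (CACGTG, which reads the same on both strands). No searched motif overlapped another.
Sesn1: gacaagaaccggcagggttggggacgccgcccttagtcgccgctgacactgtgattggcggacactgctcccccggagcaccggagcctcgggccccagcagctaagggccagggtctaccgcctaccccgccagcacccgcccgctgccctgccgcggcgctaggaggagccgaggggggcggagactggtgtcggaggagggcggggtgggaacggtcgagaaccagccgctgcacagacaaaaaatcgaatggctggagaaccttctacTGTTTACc
Igf1r: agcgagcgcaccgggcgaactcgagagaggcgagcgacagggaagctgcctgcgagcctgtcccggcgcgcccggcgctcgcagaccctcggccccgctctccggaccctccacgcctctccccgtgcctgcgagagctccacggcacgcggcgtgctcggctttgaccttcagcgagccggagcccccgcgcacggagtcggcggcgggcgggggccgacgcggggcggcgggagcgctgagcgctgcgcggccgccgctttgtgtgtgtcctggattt
Irs2: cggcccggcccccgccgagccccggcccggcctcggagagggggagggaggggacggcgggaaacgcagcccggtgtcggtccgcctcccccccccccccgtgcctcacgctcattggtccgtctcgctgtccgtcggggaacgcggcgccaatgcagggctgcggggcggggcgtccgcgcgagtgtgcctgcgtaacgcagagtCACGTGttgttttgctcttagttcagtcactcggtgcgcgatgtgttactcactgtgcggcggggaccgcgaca
Txnip: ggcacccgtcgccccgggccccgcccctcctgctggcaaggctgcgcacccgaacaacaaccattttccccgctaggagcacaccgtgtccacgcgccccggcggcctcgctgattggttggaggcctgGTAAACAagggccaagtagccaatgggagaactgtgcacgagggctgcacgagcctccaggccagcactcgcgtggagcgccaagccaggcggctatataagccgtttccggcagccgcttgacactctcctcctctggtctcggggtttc

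The windows lie at chr10:41810324-41810603 on the plus strand for Sesn1, chr7:67952007-67952286 on the plus strand for Igf1r, chr8:11008900-11009179 on the minus strand for Irs2 and chr3:96557707-96557986 on the plus strand for Txnip. RefSeq held 12 windows of 300 bases for 9 of the 10 genes, with more than 1 start for Sesn1, Akt1 and Pik3r1, and Insr was not among them. The FoxO element began at -121 in Txnip and at 23 in the farther upstream of the Sesn1 starts. It also began at -161 in the farther upstream of the Akt1 starts. The other Sesn1 window, chr10:41887189-41887488, held no searched motif and is not printed. The E-box began at -44 in Irs2 and at -115 in Irs1. Of all 32851 promoter windows of this length, 3.65% held the FoxO element and 7.15% the E-box, searched on both strands. A glucocorticoid receptor half-site (AGAACA or TGTTCT) stood in 19% of all windows and in 0 of the 12, and the full palindromic element, known by name, stood in 0.00913% of all and in 0 of the 12. Such matches describe letters in a window and are not bound sites, and a missing match says only that the letters are not in it.

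The libraries held 21121869 to 59439645 reads, recovered from the deposited values, with a median of 24420130. Median depth went with phenotype. With saline and DEX it was 22869703 and 23492572 in control, 24008146 and 24187702 in PS and 34242532 and 37876626 in AS libraries. No pair of libraries of a group agreed within sampling noise (mean chi-square of at least 5.69 over the genes). All 10 signalling genes had at least 10 reads in every library, the lowest being 264 reads of Irs1. The drug labels held in the known targets of the receptor: Fkbp5, a co-chaperone that the receptor induces, had log2 fold changes of 2.26, 2.00 and 1.91 in the control, PS and AS phenotypes. All 10 pyramidal neuron markers were measured, with a summed normalized count of 163755 to 232549 per library. Libraries of PS DEX mouse 34, AS saline mouse 44 and AS DEX mouse 60 stood apart, with a mean correlation to their own group of 0.984, 0.985 and 0.983 over 12018 genes, against 0.988 or more elsewhere. Mouse 44 was the lowest of its group in 9 of the 10 genes and mouse 60 in 7 of the 10. In bulk tissue fewer cells of a type and less RNA per cell cannot be told apart.

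**Figure D1:**
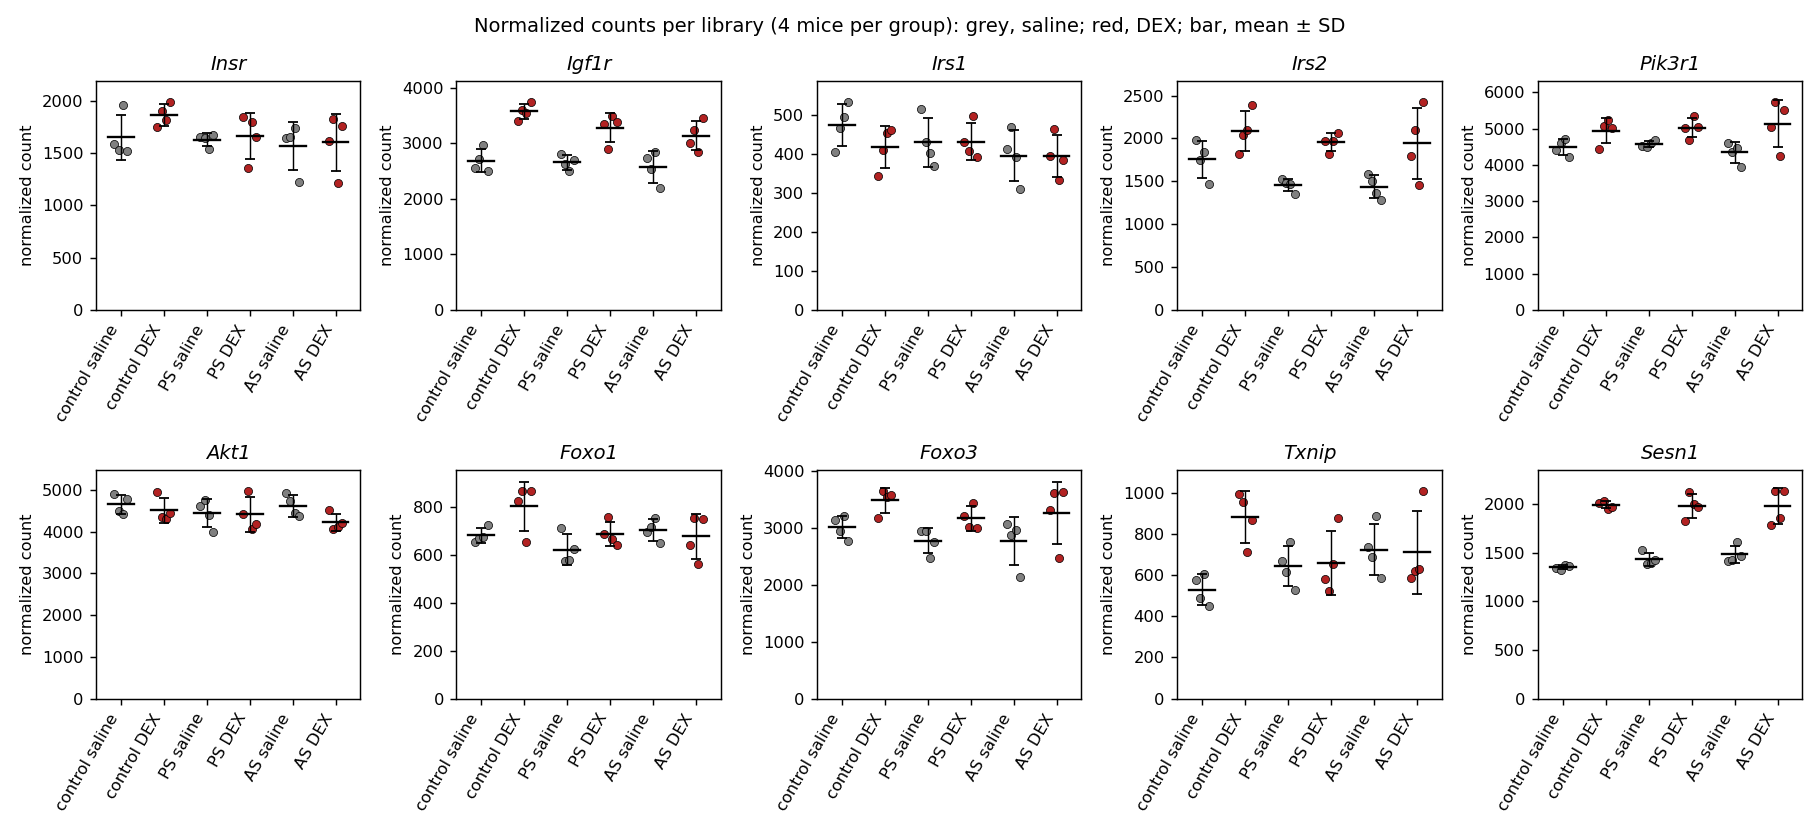
Normalized counts of the 10 genes (y axes from 0) in each of the 24 libraries, by group, with 4 mice per group. Points are libraries (grey, saline; red, DEX), long bars are group means and error bars are SD. The DEX libraries of Sesn1 lie above all saline libraries of the same phenotype, and those of Igf1r do so in control and PS mice.

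Differences were tested with limma on log2(normalized count + 1), with 1 fit over all 24 libraries and all 14074 genes, and a gene was called at a Benjamini-Hochberg adjusted p under 0.1. Fold changes are on that log2 scale, with the SE of the fit, unless a fold is stated. Averaged over the 3 phenotypes, 5 of the 10 genes were called for DEX and all 5 were higher, beside 15.5% of all genes called and 7.46% called and higher. In control mice 3 of the 10 were called and higher (6.49% of all genes called, 4.03% called and higher). In PS mice it was also 3 (5.36% and 2.74%) and in AS mice 4 (8.77% and 3.82%). The AS count was 2 without AS DEX mouse 42, 1 without AS DEX mouse 72 and 1 in a fit of only the AS libraries. Without the 3 libraries that stood apart the counts were 6 for the mean, 4 in control, 4 in PS and 5 in AS mice. Counts of other genes of the pathway were also higher in that fit. The shares over all genes above are those of the fit to all 24 libraries and are no background for these counts. The median response of the 10 was 0.22 in control, 0.14 in PS and 0.13 in AS mice, beside medians of -0.01, -0.00 and 0.00 over all genes. In control mice 3 of the 10 had every DEX library above every saline library, a pattern that 5.81% of all genes showed. The same was seen for 4 of the 10 in PS mice (5.54% of all genes) and for 1, Sesn1, in AS mice (4% of all genes). None of the 10 had the reverse pattern in any of these comparisons.

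**Figure D2:**
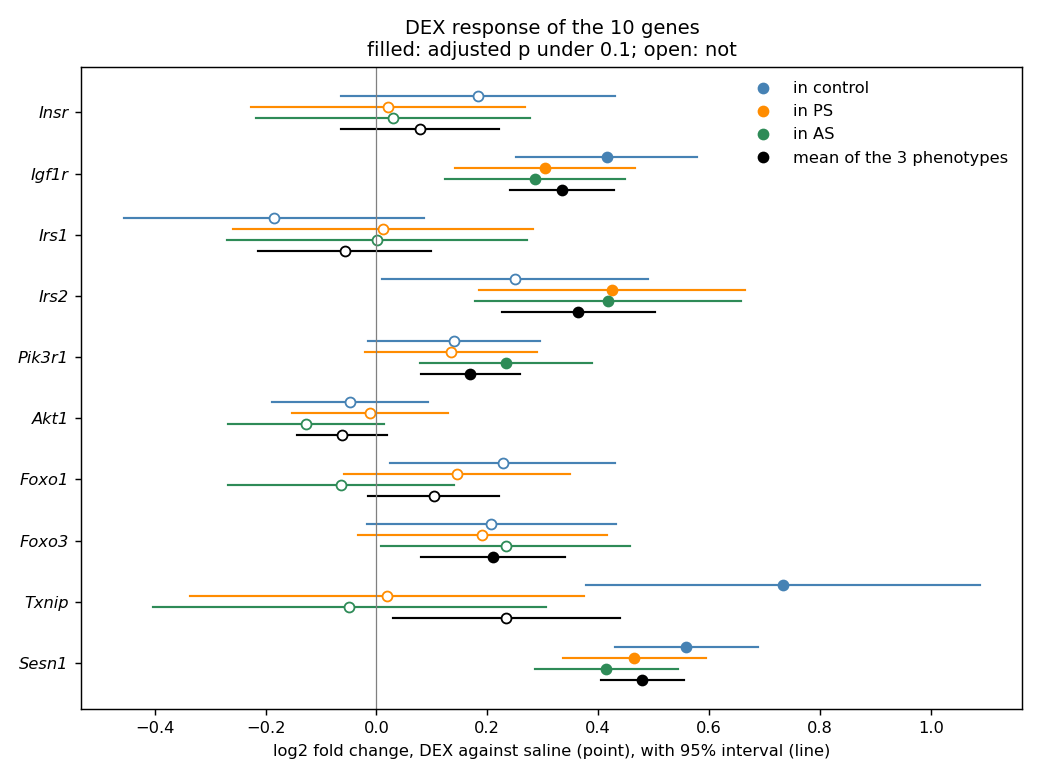
Log2 fold change of DEX against saline for each of the 10 genes (x axis) in control, PS and AS mice and as the mean over these phenotypes. Points are limma estimates, filled where the adjusted p is under 0.1, and lines are 95% intervals. Sesn1 and Igf1r are filled in every row, and Txnip is filled in control mice with an interval that does not reach the PS or AS estimates.

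Of the receptors, Igf1r (chr7:67952827-68233668, plus strand), the receptor for insulin-like growth factor 1, rose in every phenotype, and Insr (chr8:3122061-3279617, minus strand), the insulin receptor, passed the test in none. In control mice Igf1r stood at 2554, 2720, 2971 and 2504 normalized counts with saline and at 3411, 3607, 3542 and 3749 with DEX. PS mice had 2813, 2621, 2496 and 2693 with saline and 3347, 2908, 3496 and 3379 with DEX. AS mice had 2741, 2542, 2846 and 2189 with saline and 3011, 3242, 2844 and 3450 with DEX. The groups did not overlap in control and PS mice, and in AS mice the highest saline library and the lowest DEX library met, at 2846 and 2844. Group means ± SD went from 2687 ± 211 to 3577 ± 141 (n = 4 each) in control mice, where the fitted rise was 1.33-fold. By limma with Benjamini-Hochberg adjustment the log2 fold changes were 0.42 ± 0.08 (SE, adjusted p = 0.0017) in control, 0.30 ± 0.08 (0.0272) in PS and 0.29 ± 0.08 (0.0308) in AS mice. The call in AS mice was lost without AS DEX mouse 72 (adjusted p = 0.112) and in a fit of only the AS libraries (0.162), while the estimate stayed at 0.24 and 0.29. The mean response was 0.33 ± 0.05, with an adjusted p of 8.7e-06 by limma.

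Insr in control mice was at 1589, 1525, 1962 and 1519 normalized counts with saline and at 1746, 1904, 1818 and 1989 with DEX. In PS mice it was at 1655, 1641, 1537 and 1673 with saline and 1844, 1356, 1800 and 1649 with DEX, and in AS mice at 1645, 1650, 1737 and 1226 with saline and 1617, 1824, 1215 and 1756 with DEX. The treatments overlapped in each phenotype, and the lowest PS DEX, AS saline and AS DEX values were those of mice 34, 44 and 60. The mean response of Insr was 0.08, with a 95% interval of -0.06 to 0.22 and an adjusted p of 0.604 by limma. Without these 3 libraries it was 0.11 and was called (adjusted p = 0.0819). Per kilobase of exon, the mean level over the 24 libraries was 178 normalized counts for Igf1r and 121 for Insr.

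Of the adaptors, which couple the receptors to PI3K, Irs2 (chr8:10984681-11008458, minus strand), the more abundant per kilobase of exon with 280 normalized counts against 46.4 for Irs1, rose in PS and AS mice. In control mice Irs2 was at 1976, 1748, 1842 and 1463 with saline and at 1818, 2039, 2102 and 2392 with DEX. In PS mice it was at 1526, 1480, 1468 and 1350 with saline and at 1972, 1815, 1968 and 2065 with DEX. In AS mice it was at 1581, 1505, 1368 and 1283 with saline and at 1796, 2098, 1456 and 2426 with DEX. The PS groups did not overlap, mouse 60 put the AS groups into overlap, and the control groups overlapped. The log2 fold changes by limma were 0.25 ± 0.12 (SE, adjusted p = 0.293) in control, 0.42 ± 0.12 (0.0386) in PS and 0.42 ± 0.12 (0.0324) in AS mice. The difference between the PS and control responses was 0.17, with a 95% interval of -0.16 to 0.51 and an adjusted p of 0.774 by limma, so that a larger response in stressed mice was not shown. The PS call was lost without PS saline mouse 68 (adjusted p = 0.111). The AS call was lost without AS DEX mouse 42 (0.12) or mouse 72 (0.136) and in a fit of only the AS libraries (0.161). Averaged over phenotypes Irs2 rose by 0.36 ± 0.07, with an adjusted p of 0.000407 by limma.

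Irs1 (chr1:82233101-82291416, minus strand), the other adaptor, ranged from 310 to 534 normalized counts over all libraries. Its mean DEX response was -0.06, with an interval of -0.21 to 0.10 and an adjusted p of 0.766 by limma, and no phenotype passed the test.

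Because the paired genes differ in level but share a library, their log2 ratio within a library was also compared, which no scaling of a library moves. The pairs were chosen after the values had been seen, so the ratios are a description with no test. The log2 ratio of Igf1r to Insr was 0.71 ± 0.10 with saline and 0.94 ± 0.03 with DEX (SD, n = 4) in control mice. It was 0.71 ± 0.04 and 0.99 ± 0.10 in PS mice, and 0.73 ± 0.09 and 0.98 ± 0.17 in AS mice. Only in AS mice did a DEX library, at 0.83, come as low as the highest saline library, at 0.84. For Irs2 to Irs1 the log2 ratio was 1.88 ± 0.34 with saline and 2.32 ± 0.08 with DEX in control mice. It was 1.77 ± 0.14 and 2.18 ± 0.17 in PS mice, and 1.86 ± 0.16 and 2.28 ± 0.25 in AS mice. Its saline and DEX libraries did not overlap in PS and AS mice. For Foxo3 to Foxo1 it was 2.14 ± 0.15 and 2.12 ± 0.21 in control mice and 1.96 ± 0.17 and 2.26 ± 0.10 in AS mice. In PS mice the means were 2.16 and 2.2, and saline and DEX libraries overlapped in each phenotype.

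**Figure D3:**
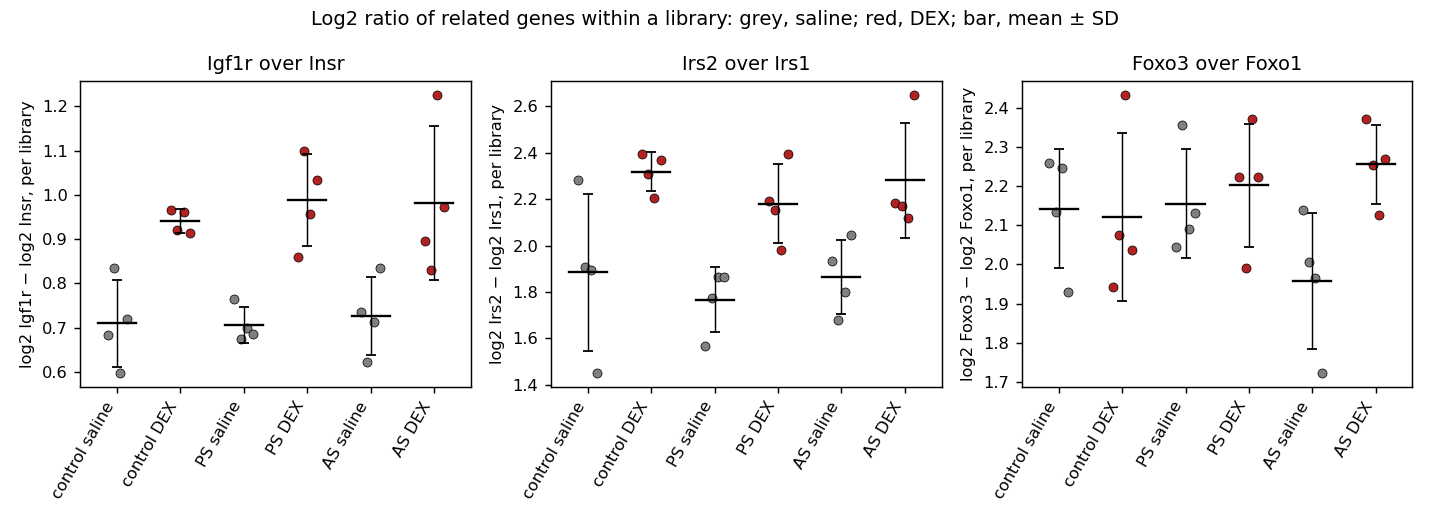
Difference of the log2 normalized counts of 2 related genes within each library (y axis, log2 units, not starting at 0), by group, with 4 mice per group. Points are libraries (grey, saline; red, DEX), long bars are means and error bars are SD. The DEX means of the Igf1r to Insr ratio lie at 0.94 to 0.99 and the saline means at 0.71 to 0.73, and the means of the Foxo3 to Foxo1 ratio are 2.14 and 2.12 in control but 1.96 and 2.26 in AS mice.

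Pik3r1 (chr13:101680563-101768217, minus strand) encodes the regulatory subunit p85α, which docks PI3K to the adaptors. Control libraries held 4413, 4609, 4710 and 4208 normalized counts with saline and 4451, 5078, 5232 and 5019 with DEX. PS libraries held 4522, 4485, 4600 and 4700 with saline and 5020, 4691, 5359 and 5047 with DEX. AS libraries held 4611, 4355, 4473 and 3952 with saline and 5047, 5740, 4258 and 5506 with DEX. In each phenotype 3 of the 4 DEX libraries lay above every saline library and 1 overlapped, which in AS mice was mouse 60. Its mean response was small, 0.17 ± 0.04 on the log2 scale or 1.12-fold, and was called (limma, adjusted p = 0.00907). By phenotype it was 0.14, 0.13 and 0.23 in control, PS and AS mice, with adjusted p-values of 0.393, 0.474 and 0.0676 by limma. The AS call depended on the libraries and was lost without any 1 of AS DEX mice 38, 42 and 72 or AS saline mice 14, 40 and 44 (adjusted p = 0.107 to 0.264), and in a fit of only the AS libraries (0.285).

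Akt1 (chr12:112653821-112674884, minus strand), the kinase that carries the PI3K signal to FoxO factors, was the gene with the highest level per kilobase of the 10, at 1092 normalized counts. Its libraries ranged from 4000 to 4982, and saline and DEX overlapped in every phenotype. The mean DEX response was -0.06, with an interval of -0.14 to 0.02 and an adjusted p of 0.406 by limma.

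The FoxO factors are held back by Akt and drive genes of fasting, cell cycle arrest and stress defence. Foxo3 (chr10:42181841-42276755, minus strand) was at 3137, 2946, 3201 and 2764 normalized counts with saline and 3165, 3649, 3530 and 3564 with DEX in control mice. In PS mice it was at 2934, 2936, 2466 and 2740 with saline and 3206, 3006, 3438 and 2985 with DEX. In AS mice it was at 3068, 2873, 2949 and 2140 with saline and 3312, 3601, 2459 and 3621 with DEX. The PS groups did not overlap, and in AS mice the lowest value of each treatment came from mice 44 and 60. The mean response of 0.21 ± 0.06 was called (limma, adjusted p = 0.0275), and the single-phenotype responses of 0.21, 0.19 and 0.23 were not (adjusted p = 0.38, 0.491 and 0.253). Without AS DEX mouse 60 the AS response was 0.36 and was called (adjusted p = 0.0217). Without all 3 libraries that stood apart, each phenotype was called, at 0.21, 0.21 and 0.24 (adjusted p = 0.0575, 0.0959 and 0.0395).

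Foxo1 (chr3:52268336-52353221, plus strand) was less abundant than Foxo3 per kilobase of exon, with a mean of 80.2 against 406 normalized counts. Control libraries held 655, 670, 674 and 724 with saline and 823, 865, 653 and 868 with DEX. PS libraries held 711, 573, 578 and 624 with saline and 686, 756, 664 and 639 with DEX, and AS libraries 696, 715, 755 and 647 with saline and 639, 754, 562 and 751 with DEX. In control mice 3 of the 4 DEX libraries were above all saline libraries and mouse 112 was below them. The response in control mice was 0.23, with an interval of 0.02 to 0.43, and was not called by limma (adjusted p = 0.247). Without mouse 112 it was 0.32 and called (adjusted p = 0.0543). In PS and AS mice it was 0.14 and -0.06, with adjusted p-values of 0.61 and 0.816.

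Sesn1 (chr10:41809935-41908424, plus strand) encodes a sestrin, a stress protein that restrains mTORC1 and is a known target of p53 and FoxO. It had the smallest adjusted p of the 10 in every DEX comparison. In control mice it was at 1347, 1328, 1375 and 1368 normalized counts with saline and at 2014, 2038, 1953 and 1977 with DEX. In PS mice it was at 1531, 1390, 1393 and 1422 with saline and at 1826, 2128, 2001 and 1970 with DEX. In AS mice it was at 1417, 1429, 1617 and 1473 with saline and at 1789, 2143, 1855 and 2142 with DEX. No DEX library of any phenotype came down to the highest saline library of the study, AS saline mouse 40 at 1617. The fitted rise was 1.47-fold in control, 1.38-fold in PS and 1.33-fold in AS mice. The log2 fold changes by limma were 0.56 ± 0.06 (SE, adjusted p = 2.4e-06), 0.46 ± 0.06 (4.33e-05) and 0.41 ± 0.06 (0.000155), and the mean was 0.48 ± 0.04 (8.01e-10). The AS response minus the control response was -0.14, with an interval of -0.33 to 0.04 and an adjusted p of 0.502 by limma, which does not pass. With DEX the group means were close, at 1996, 1981 and 1982 in control, PS and AS mice. With saline they were ordered control, PS and AS, at 1354 ± 21.2, 1434 ± 66.5 and 1484 ± 92.2 (SD, n = 4). All 4 PS and all 4 AS saline libraries lay above the highest control library, a pattern of 5.15% and 3.45% of all genes in those comparisons. The fitted differences of 0.08 and 0.13 did not pass (limma, adjusted p = 0.609 and 0.451), and PS and AS overlapped.

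Txnip (chr3:96557957-96561883, plus strand) encodes a thioredoxin-binding arrestin that limits glucose uptake and is known to follow glucose and FoxO activity. In control mice it was at 576, 489, 608 and 450 normalized counts with saline and at 996, 955, 712 and 871 with DEX. In PS mice it was at 671, 617, 761 and 531 with saline and at 583, 525, 656 and 879 with DEX. In AS mice it was at 739, 687, 889 and 588 with saline and at 585, 621, 629 and 1013 with DEX. The control groups did not overlap, and the PS and AS groups overlapped, with 1 high DEX library each (mice 56 and 72). The rise in control mice was 0.73 ± 0.17 on the log2 scale or 1.66-fold (limma, adjusted p = 0.0118). In PS mice the estimate was 0.02, with an interval of -0.34 to 0.37, and in AS mice -0.05, with an interval of -0.40 to 0.31.

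The responses of Txnip were set against each other by the interaction terms, which share the control libraries. The PS response minus the control response was -0.71 on the log2 scale, with an interval of -1.22 to -0.21, an unadjusted p of 0.00728 and an adjusted p of 0.367 in the limma fit over all genes. For AS the difference was -0.78, with an interval of -1.28 to -0.28, an unadjusted p of 0.00374 and an adjusted p of 0.16 in the same limma fit. Neither passed the threshold, so a difference in response was not called, although both intervals leave out 0. The AS difference was called by DESeq2 (adjusted p = 0.0791), and by limma without control DEX mouse 112 (0.0695), without AS DEX mouse 72 (0.0812), without AS saline mouse 44 (0.0698) and without the 3 libraries that stood apart (0.0709). The saline levels also differed in order, with means of 531 ± 73.7, 645 ± 96.6 and 726 ± 126 in control, PS and AS mice (SD, n = 4). AS saline exceeded control saline by 0.45, with an unadjusted p of 0.0161 and an adjusted p of 0.346 in the limma fit. The mean DEX response of 0.23 was not called by limma (adjusted p = 0.148). It was called by DESeq2 (0.0894) and by limma without control DEX mouse 112 (0.0954), PS DEX mouse 34 (0.084) or AS saline mouse 40 (0.092).

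The median responses of the vessel, leptomeningeal, astrocyte and blood markers were above 0 in control and below 0 in both stressed phenotypes. The 10 endothelial markers, all of them measured, had a median response of 0.26 in control, -0.37 in PS and -0.65 in AS mice, with 1 called higher in control, 1 higher and 2 lower in PS, and 5 lower in AS mice. Their summed normalized count ran from 8852 to 11773 in control saline and from 11117 to 15906 in control DEX libraries. It ran from 8162 to 11060 in PS saline, 6338 to 12199.5 in PS DEX, 7846 to 12210 in AS saline and 6555 to 9391 in AS DEX libraries. The 8 mural markers had medians of 0.36, -0.18 and -0.55, and the leptomeningeal markers (5 of 6 measured) 0.35, -0.67 and -0.59. The 8 astrocyte markers had medians of 0.15, -0.15 and -0.09, and the 5 blood markers 0.36, -0.80 and -0.19. Called astrocyte markers went both ways: 2 higher in control, 2 higher and 1 lower in PS, and 1 higher and 2 lower in AS mice. The 8 microglial markers had medians of -0.02, -0.32 and -0.34, and the 8 oligodendrocyte markers -0.31, 0.14 and 0.42. Beside the genes that rose in every phenotype, 3 of 4 measured striatal markers (of 6 listed) were called higher for the mean response, and their sum did not overlap between saline and DEX: 3280 to 4008 and 4189 to 4998 in control, 3121 to 3824 and 3930 to 4481 in PS, and 3386 to 3961 and 4364 to 5839 in AS mice. The 10 pyramidal neuron markers had a median of 0.04 for the mean response, with 2 called higher and 2 lower. The part of these markers in the responses of the 10 genes was not tested.

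The effect of chronic stress was asked in saline-treated mice, and the same control libraries serve both phenotypes. Of the 10 genes 0 were called by limma for PS against control, beside 1.51% of all genes, 0 for AS against control (0.156%) and 0 for AS against PS (0% of all genes). At an unadjusted p under 0.05 there were 1, 3 and 0, and both edgeR and DESeq2 called 0 in each comparison. No share of all genes at that level stands beside the counts for PS and AS against control, so they are only a description. Irs2 had an unadjusted p under 0.05 in both phenotypes, with log2 differences from control of -0.26 in PS (interval -0.50 to -0.02) and -0.29 in AS mice (interval -0.53 to -0.05). The adjusted p-values were 0.326 and 0.361 by limma, and the PS, AS and control libraries overlapped through control mouse 117 at 1463. Igf1r gave -0.02 in PS (interval -0.18 to 0.15) and -0.06 in AS mice (interval -0.23 to 0.10).

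Whether stress changed the DEX response was asked of all 10 genes by the interaction terms. For PS against control 0 of the 10 passed, beside 0% of all genes, and for AS against control 0 of the 10, beside 0.348% of all genes. The AS response minus the PS response gave 0 of the 10 and 0% of all genes. At an unadjusted p under 0.05 there was 1 of the 10 for PS, Txnip, and there were 2 for AS, Txnip and Foxo1, and 0 for AS minus PS. The count for AS has no share of all genes at that level beside it and is only a description. edgeR called 0 of the 10 in all 3, and DESeq2 called 0, 1 (Txnip) and 0. The shares over all genes above are those of limma and are not the background of the DESeq2 call. With DESeq2 the paper reported many more interaction genes for AS than for PS. The Txnip call was therefore 1 of many over all genes and is only a description. Without control DEX mouse 112, AS DEX mouse 72 or AS saline mouse 44, limma also called 1 of the 10 for AS, again Txnip. Over all genes the limma terms for PS and for AS minus PS had 1404 and 344 genes at an unadjusted p under 0.05, edgeR called 0 and 0, and DESeq2 23 and 0. For AS against PS with saline, 671 genes had an unadjusted p under 0.05, edgeR called 0 and DESeq2 11.

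Beyond the 10, 91 of 103 listed genes of the pathway were measured, and 23 were called for the mean DEX response, 15 higher and 8 lower, beside 15.5% of all genes called and 7.46% called and higher. Without the 3 libraries that stood apart the count was 26. The shares over all genes are the background for each list that follows. The lists were chosen with earlier results of these data known, so their counts are a description and no test of a list. The median of the 91 was 0.02, beside -0.00 over all genes. The listed targets of FoxO held 6 risers and no faller among 22, beside 7.46% of all genes called and higher, with a median of 0.05. Cdkn1a, the cell cycle inhibitor p21, rose by 1.11 ± 0.08 (limma, adjusted p = 4.67e-10), Klf15, a glucocorticoid-induced factor of amino acid metabolism, by 0.55 ± 0.06 and Bcl6, a transcriptional repressor, by 0.35 ± 0.07. In control mice Cdkn1a went from 516 ± 97.6 to 1170 ± 99.5 normalized counts (SD, n = 4). Several of these targets are also known targets of the glucocorticoid receptor or of p53. Sesn2 and Sesn3, the other sestrins, were in this list and were not among those called.

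Inhibitors of the pathway held 5 risers and 2 fallers among 17, beside 15.5% of all genes called. Ddit4, also called REDD1, which restrains mTORC1, rose by 0.56 ± 0.06 (limma, adjusted p = 1.11e-07), and its libraries did not overlap between saline and DEX in any phenotype. Trib1, a pseudokinase of the Tribbles family, rose by 0.30 ± 0.05, and Inppl1, the lipid phosphatase SHIP2, fell by 0.15 ± 0.04. Of the ligands and binding proteins, 1 of 7 rose and 2 fell. Igfbp3, which binds insulin-like growth factors, rose by 0.42 ± 0.06, and Igfbp5 and Igfbp2 fell by 0.28 ± 0.08 and 0.26 ± 0.10. Of the other receptors and adaptors, 2 of 11 rose and 1 fell: the adaptor Sh2b2 rose by 0.41 ± 0.08, Grb14, which inhibits the insulin receptor, by 0.13 ± 0.04, and Gab1, a docking protein for PI3K, fell by 0.32 ± 0.05.

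Beside Akt1, the downstream kinases held no riser and 1 faller among 16. Akt2, the isoform best known for insulin-stimulated glucose uptake, fell by 0.35 ± 0.04 (limma, adjusted p = 8.9e-07). Control mice had 3183 ± 209 normalized counts with saline and 2686 ± 197 with DEX (SD, n = 4). The means were 3347 ± 202 and 2613 ± 75.9 in PS mice, and 3398 ± 297 and 2512 ± 179 in AS mice. PS and AS libraries did not overlap between treatments and control libraries did. The other PI3K subunits held no riser and 2 fallers among 9, Pik3r3, another regulatory subunit, by 0.22 ± 0.04 and Pik3cd, a catalytic one, by 0.12 ± 0.04. Among 9 FoxO factors and partners the deacetylase Sirt2 rose by 0.12 ± 0.04.

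**Figure D4:**
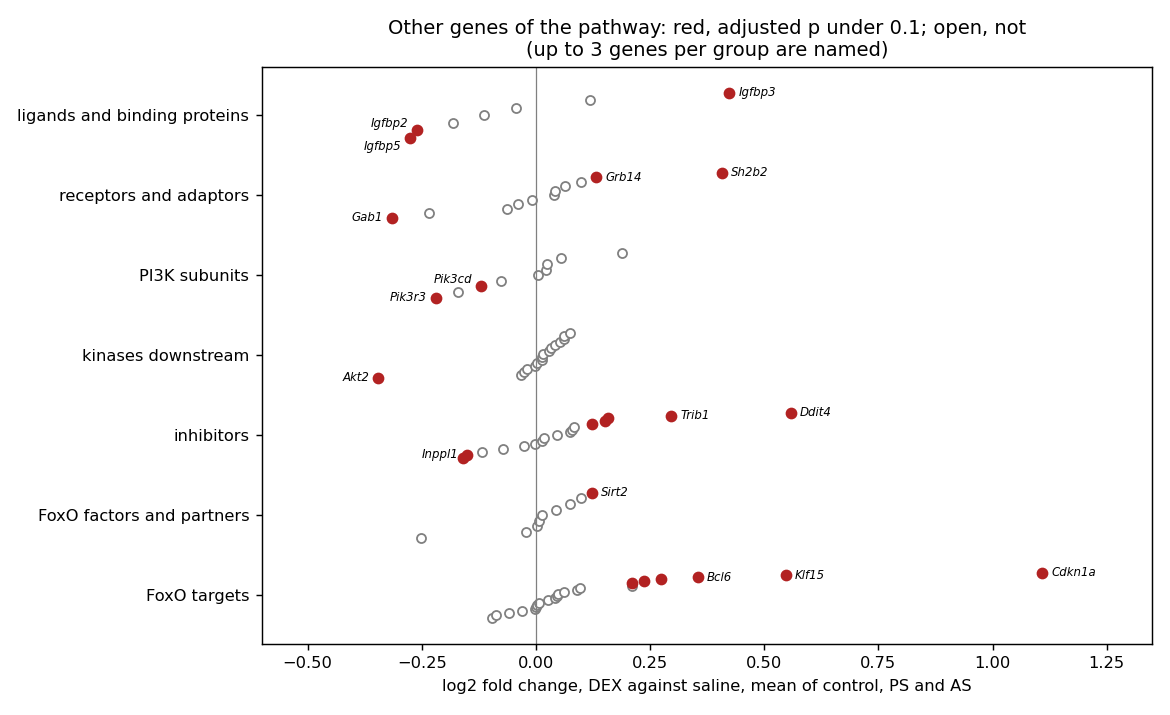
Log2 fold change of DEX against saline as the mean over control, PS and AS mice (x axis) for the 91 other genes of the pathway, by list (y axis, spread only for legibility). Points are genes, red where the limma adjusted p is under 0.1, with up to 3 names per list. The 6 red points among the FoxO targets are all to the right of 0, and Akt2, to the left, is the 1 red point among the kinases.

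By phenotype the listed genes gave 8 calls among the 91 in control (6 higher, 2 lower), beside 6.49% of all genes. They gave 10 in PS (7 higher, 3 lower), beside 5.36%, and 11 in AS mice (6 higher, 5 lower), beside 8.77%. Those with the smallest adjusted p were Cdkn1a (1.19), Igfbp3 (0.73) and Ddit4 (0.62) in control mice, and Cdkn1a (1.14), Ddit4 (0.64) and Klf15 (0.60) in PS mice. In AS mice they were Cdkn1a (0.99), Akt2 (-0.43) and Gab1 (-0.46), all as log2 fold changes. The count in control mice was 5 without control DEX mouse 101 or without control saline mouse 106 or 107, and 13 without the 3 libraries that stood apart. The count in AS mice was 18 without AS saline mouse 44 or without these 3 libraries. For stress in saline-treated mice 1 listed gene of the 91 was called, beside 1.51% of all genes: Sh2b1, an adaptor that enhances insulin and leptin signalling, fell by 0.21 ± 0.05 in PS mice (limma, adjusted p = 0.0386), from 2408 ± 63.6 to 2088 ± 51.7 normalized counts (SD, n = 4) with no overlap. The count was 0 without control saline mouse 106 or PS saline mouse 2 and 2 without PS saline mouse 62. It was 4 with DESeq2 and 6 without the 3 libraries that stood apart. The shares over all genes in this paragraph are those of limma on all libraries and are no background for counts from other fits. With DESeq2 the paper reported more genes for PS stress than limma called here. No listed gene was called by limma for AS stress or for an interaction. At an unadjusted p under 0.05 there were 10 for AS stress, 8 for the PS interaction, 11 for the AS interaction and 2 for AS minus PS, and edgeR called 0 in each. For the PS interaction and AS minus PS, these counts were no higher than the share of all genes at that unadjusted p. No such share stands beside the others, and all these unadjusted counts are only a description. For the AS interaction DESeq2 called 2, and limma called 4 without control DEX mouse 112 or AS saline mouse 44, 3 without AS DEX mouse 60, 2 without PS DEX mouse 56, 1 without PS DEX mouse 34 or AS saline mouse 14, and 7 without the 3 libraries that stood apart.

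The genes most like Sesn1 and Igf1r over the 24 libraries were also listed, as a description of 12008 genes that share libraries and treatment groups. For Sesn1 these were Fkbp5 (Pearson r = 0.967), Pkp2, a desmosomal plakophilin (0.965), and Hacd2, an enzyme of fatty acid elongation (0.962). With the group means removed these values were 0.583, 0.644 and 0.711. For Igf1r they were Plekhg1 (0.96), Tead1, a transcription factor of the Hippo pathway (0.953), and Aff1 (0.945), and with the group means removed 0.854, 0.869 and 0.77. Among the 10 themselves, Irs2 and Foxo3 had the highest r (0.844, and 0.744 with group means removed) and Pik3r1 and Akt1 the lowest (-0.50 and -0.35). With group means removed the highest was that of Insr and Igf1r (0.878, and 0.677 before).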

How the data were processed

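Sequencing was strand-specific (NEBNext Ultra II Directional), paired-end, on an Illumina XTen, from RNA of high integrity. The submitters' processing notes name fastp 0.20.1, HISAT2 2.2.1, featureCounts of Subread 2.0, FastQC, Picard and DESeq2 1.36.0, with mouse build GRCm38 (mm10). The deposited table holds signal values, gene counts that the authors divided by DESeq2 size factors, for 24 libraries. Every value column was mapped to a sample by its library name. Whole reads were recovered from the steps between low values (100% of values whole within 0.01 read). Deposited tables of the authors' comparisons (log2 fold changes and p-values) were not used here.

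The main test was limma 3.58.1 (R 4.3.3, trend) on log2(normalized count + 1) in 1 fit of 6 group means to all 24 libraries, Benjamini-Hochberg over 14074 genes, called under 0.1. It was also run on simulated counts with known DEX changes, equal in every phenotype, and with no libraries that stood apart. That run does not bear on calls that hinge on single mice. Alternatives were a pseudocount of 8, a mean of at least 100 normalized counts, at least 10 reads in every library, quantile normalization, library size as a covariate, only the groups compared, each library left out, edgeR 4.0.16 and DESeq2 1.42.0 on recovered reads. On those reads edgeR called 862, 763 and 1330 genes for DEX in control, PS and AS mice and DESeq2 1006, 903 and 1614. The fit without the 3 libraries least like their group, and the gene ratios, were added after seeing the data.

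All 10 genes are named. Other pathway genes named are the 3 with the smallest adjusted p among those called, per list for the mean response and over all lists otherwise. Sesn2, Sesn3 and single libraries were named after their values were seen. The genes and lists were chosen with earlier results of these data known. Coordinates and exon lengths come from GENCODE vM21 on GRCm38, the build of the files, whose annotation was vM22. RefSeq starts can differ from those gene starts. The mice are separate animals, 1 library each. Depth limits the precision of low genes, and none of the 10 is low.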

Additional observations from a re-analysis of the deposited data

Results flagged for a closer look

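In 60 pairs of a gene and a group of 4 libraries, 2 libraries lay farther from the others than Dixon's 95% critical value allows, where chance gives about 1 in 20. Insr in control saline mouse 109 stood at 1962 normalized counts while the other 3 libraries lay between 1519 and 1589, a gap of 0.843 of the range. Txnip in AS DEX mouse 72 stood at 1013 normalized counts while the others lay between 585 and 629, a gap of 0.897 of the range. No interaction term of the 10 genes passed the threshold.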

How the results depend on the processing

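For the 10 genes, 100 log2 fold changes were recomputed under 33 other settings (24 of them leaving out 1 library), 3290 values in all. No called value changed sign, 3262 stayed on their side of the threshold (119 of these with another sign, called in neither setting), 13 lost the call and 15 gained it. With only the groups compared, the count of the 10 called for DEX in AS mice was 1, and 4 listed pathway genes were called for PS stress. With DESeq2, 1 of the 10 was called for the AS interaction, and 4 pathway genes for PS stress and 2 for the AS interaction. Without the 3 libraries that stood apart (added after seeing the data), 1 of the 10 was called for the AS interaction, and the pathway counts were 6 for PS stress, 13 for DEX in control, 18 for DEX in AS and 7 for the AS interaction. No share of all genes stands beside the counts of these other fits, so they are only a description. The cause of these changes was not tested. With 1 library left out, the counts of the 10 ranged from 3 to 4 for DEX in control, 2 to 3 in PS, 1 to 5 in AS and 5 to 6 for the mean, from 0 to 1 for the AS interaction, and stayed at 0 for the other 5 comparisons. The pathway counts ranged from 5 to 11 for DEX in control, 7 to 12 in PS, 8 to 18 in AS and 20 to 26 for the mean, from 0 to 2 for PS stress and 0 to 4 for the AS interaction, and stayed at 0 for the other 4. The fit with only the groups compared could not be given for the mean response, which uses all 6. No paired analysis was possible because mouse numbers do not recur between groups.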
